A study of Mus musculus with 4 samples.

Results

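The COUP-TF genes Nr2f1 and Nr2f2, which encode COUP-TFI and COUP-TFII, were followed in 4 single-cell RNA libraries of the embryonic mouse forebrain. The members were the rows with these symbols, 2 of the 43346 genes in each count matrix. Both are orphan nuclear receptors: they bind DNA as dimers at paired half-sites, mostly act as repressors, and can pair with retinoid X receptors. In the developing telencephalon Nr2f1 is known for its role in patterning the cortex into areas. Nr2f2 is known as a regulator of neurons that leave the caudal ganglionic eminence (CGE), and outside the nervous system of veins and mesenchyme.

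The tissue came from wild-type mice at E12.5. The cortex (CTX) gave 1 library, and so did each ganglionic eminence: lateral (LGE), medial (MGE) and caudal. The eminences are the ventral zones that give rise to GABAergic neurons. No transgene or drug is named for any of the 4 groups. The methods describe tissue pooled over several embryos, so that no region has a replicate here. Cells were classed as high-Nes cells (radial glia, the progenitors that express the filament gene Nes) and high-Dcx cells (young neurons that express Dcx, a microtubule-binding protein), with ln(1 + UMIs per 10000) above 1.5 for its gene. High-Dcx cells are called neurons below for short, although the class also held dividing cells. A UMI (unique molecular identifier) stands for 1 captured transcript.

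After filtering, 3540 CTX, 4660 LGE, 4734 MGE and 3192 CGE cells were kept, with median depths between 6954 and 8257 UMIs. They held 901, 654, 539 and 180 high-Nes cells and 798, 2122, 2207 and 2287 high-Dcx cells in the same order. Between 17 and 73 cells per library passed both limits, and 66 barcodes occurred in more than 1 library. The dissections were checked with region genes: in high-Nes cells Nkx2-1, which specifies the MGE, was at 554 UMIs per 1000000 (CPM) in the MGE library and between 0 and 34.7 CPM in the others. The dorsal gene Pax6 was at 319 CPM in the CTX library and between 1.01 and 71.4 CPM in the others.

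Both genes lie on the minus strand of build GRCm38. Nr2f2 (ENSMUSG00000030551.9) spans chr7:70351944-70366735 and Nr2f1 (ENSMUSG00000069171.9) spans chr13:78188973-78199757. Their RefSeq promoter windows, 250 bases before to 50 after the start, are shown because the 2 genes differ in base composition there. CG dinucleotides are in capitals.
Nr2f2, chr7:70366697-70366996, minus strand: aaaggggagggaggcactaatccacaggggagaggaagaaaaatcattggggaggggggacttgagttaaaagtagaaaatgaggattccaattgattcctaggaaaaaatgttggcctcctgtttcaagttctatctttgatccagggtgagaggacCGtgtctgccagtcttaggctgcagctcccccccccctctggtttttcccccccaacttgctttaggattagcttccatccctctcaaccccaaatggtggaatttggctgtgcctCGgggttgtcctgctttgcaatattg
Nr2f1, chr13:78198824-78199123, minus strand: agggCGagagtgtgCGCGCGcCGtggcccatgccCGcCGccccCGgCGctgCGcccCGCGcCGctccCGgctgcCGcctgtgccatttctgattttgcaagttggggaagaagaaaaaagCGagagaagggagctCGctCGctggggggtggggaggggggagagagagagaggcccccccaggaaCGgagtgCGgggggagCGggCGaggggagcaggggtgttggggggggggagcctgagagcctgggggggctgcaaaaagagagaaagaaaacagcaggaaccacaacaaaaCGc
The Nr2f1 window held 23 CG dinucleotides at 68% GC and the Nr2f2 window 2 at 49.7% GC, against medians of 7 and 52.7% over 32851 windows of the same length. A second annotated Nr2f1 start, with the window chr13:78196400-78196699, had 4 CG dinucleotides and 43% GC. The COUP-TF half-site AGGTCA, searched on both strands, occurred in 16.3% of all windows and in none of these 3, which says only that these letters were not in the windows.

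Nr2f1 was detected at its highest level in the CGE library and at its lowest in the LGE library, in progenitors and in young neurons alike. In high-Nes cells its level was 1415 CPM in CGE (95% exact Poisson interval 1358 to 1475), 455 in CTX (440 to 470), 303 in MGE (289 to 319) and 101 in LGE (92.9 to 110). Among high-Dcx cells it was 1461 CPM in CGE (1443 to 1480), 432 in CTX (417 to 448), 394 in MGE (384 to 404) and 63.1 in LGE (59.2 to 67.3). The intervals of neighbours in this order did not overlap, but they cover counting error only. They leave out the spread between cells of a library, and thinned counts varied more than Poisson counts would. In high-Dcx cells their variance was 3.45 times the mean in MGE and 1.87 times in CTX. PCR and dissection differences between single libraries add error that was not measured. The smallest step was CTX over MGE in high-Dcx cells, at 1.10-fold (1.05 to 1.15). CGE exceeded CTX by 3.38-fold (3.25 to 3.51) and LGE by 23.1-fold in high-Dcx cells. With 1 library per region there was no test between regions.

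Nr2f2 followed another order, CGE, MGE, CTX and LGE, over a wider range. In high-Nes cells its level was 400 CPM in CGE (370 to 433) and 48.2 in MGE (42.4 to 54.5). The cortical and lateral libraries held 40 and 11 Nr2f2 UMIs in these cells, or 5.17 CPM (3.69 to 7.03) and 2.02 CPM (1.01 to 3.61), with CTX over LGE at 2.56 (1.29 to 5.53). This step depended on cells that also passed the Dcx limit. With cells past both limits left out, the levels were 2.63 CPM in CTX and 2.22 CPM in LGE. In high-Dcx cells the levels were 646 CPM in CGE (634 to 659), 94.4 in MGE (89.5 to 99.5), 9.47 in CTX (7.29 to 12.1; 64 UMIs) and 1.55 in LGE (0.982 to 2.33; 23 UMIs). CGE exceeded MGE by 6.85-fold (6.47 to 7.25) and LGE by 417-fold (278 to 658). MGE and CTX thus changed places between the members. The number of Nr2f1 UMIs per Nr2f2 UMI in high-Dcx cells fell from 45.7 in CTX and 40.7 in LGE to 4.17 in MGE and 2.26 in CGE. This ratio is not corrected for differences in capture between the 2 genes and is read only between libraries.

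**Figure D1:**
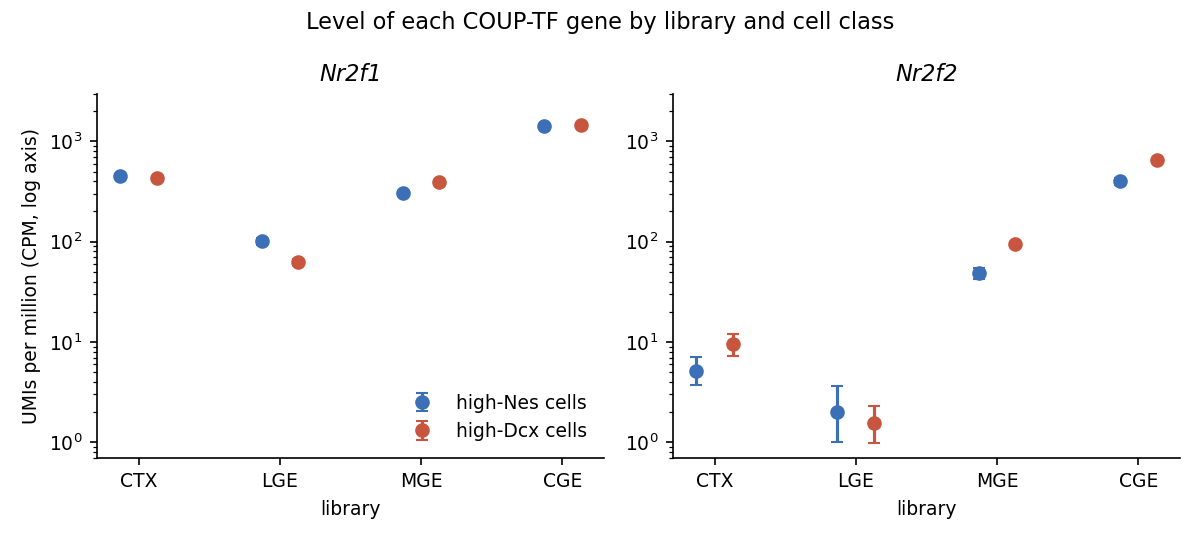
Level of Nr2f1 and Nr2f2 (CPM, log axis) in high-Nes and high-Dcx cells of the 4 libraries, 1 library per region; points are levels and bars are exact 95% Poisson intervals. Nr2f1 runs from 63.1 CPM in LGE to 1461 CPM in CGE high-Dcx cells, and Nr2f2 from 1.55 to 646 CPM.

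The share of cells with a UMI was compared after each cell was thinned to 3000 UMIs. Among high-Dcx cells Nr2f1 was found in 91.0% of the CGE library, 67.0% of CTX, 42.3% of MGE and 9.61% of LGE (96.6%, 88.8%, 55.7% and 16.5% at full depth). At this depth the Nr2f1 level of high-Dcx cells was 500 CPM in CTX and 381 CPM in MGE. An even Poisson spread of these UMIs would put the gene in 77.7% of CTX and 68.1% of MGE cells. In MGE the UMIs were less evenly spread: the variance of thinned Nr2f1 counts was 3.45 times their mean in MGE high-Dcx cells and 1.87 times in CTX. The Nr2f2 shares were 66.1% (CGE), 14.7% (MGE), 1.40% (CTX) and 0.240% (LGE) (78.5%, 23.9%, 2.88% and 0.754% at full depth). Thinning left out 14, 41, 52 and 35 high-Dcx cells of CTX, LGE, MGE and CGE. The medians before thinning were 7952.5, 6441, 6353 and 6755 UMIs.

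Free RNA was judged from red blood cell barcodes (at least 50% globin UMIs), which should lack both genes. In CTX 13 of 156 such barcodes had an Nr2f1 UMI (8.33%; median 1183 UMIs without globins). The numbers were 2 of 59 for LGE (3.39%; median 1248), 2 of 53 for MGE (3.77%; median 1205) and 0 of 17 for CGE (median 1814), where 0 allows a share of up to 17.6%. As a level, these barcodes held 145 CPM in CTX (99.6 to 203), 34.8 in LGE (7.18 to 102) and 92.1 in MGE (37.0 to 190). The interval for LGE red cells, on 3 UMIs, includes the 63.1 CPM of LGE high-Dcx cells and the 101 CPM of LGE high-Nes cells. It describes the RNA of these barcodes, not the share of free RNA in a neural cell's UMIs. It thus sets no floor for either class. The Nr2f1 UMIs lay in few barcodes, with 33 in the 13 CTX barcodes and 7 in the 2 MGE barcodes. Doublets were not removed among red cell barcodes, and how much of their RNA was free was not tested. How much of the LGE Nr2f1 level is free RNA was not measured, and LGE class differences of Nr2f1 carry this limit. Nr2f2 was found in none of the red cell barcodes of CTX, LGE or MGE, which allows up to 13.2, 34.8 and 39.5 CPM, and in 2 of 17 in CGE (11.8%, 63.1 CPM). The Nr2f2 levels of CTX and LGE lie under those limits.

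Between the classes, Nr2f2 was higher in high-Dcx than in high-Nes cells of CTX, MGE and CGE, and Nr2f1 showed no common direction. Cells past both limits were left out here, which moved the CTX levels of Nr2f2 most, to 2.63 CPM in high-Nes and 6.66 CPM in high-Dcx cells. High-Dcx over high-Nes, the log2 ratio of Nr2f2 was 0.73 in CGE (0.61 to 0.85), 1.04 in MGE (0.83 to 1.25), 1.34 in CTX (0.55 to 2.18) and -0.47 in LGE (-1.56 to 0.72), where 0 lies inside the interval. For Nr2f1 it was 0.39 in MGE (0.31 to 0.48), 0.06 in CGE (-0.00 to 0.13), -0.07 in CTX (-0.15 to -0.00) and -0.75 in LGE (-0.91 to -0.60). Nr2f1 was thus on opposite sides of 0 in MGE and LGE, a difference that was not tested.

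**Figure D2:**
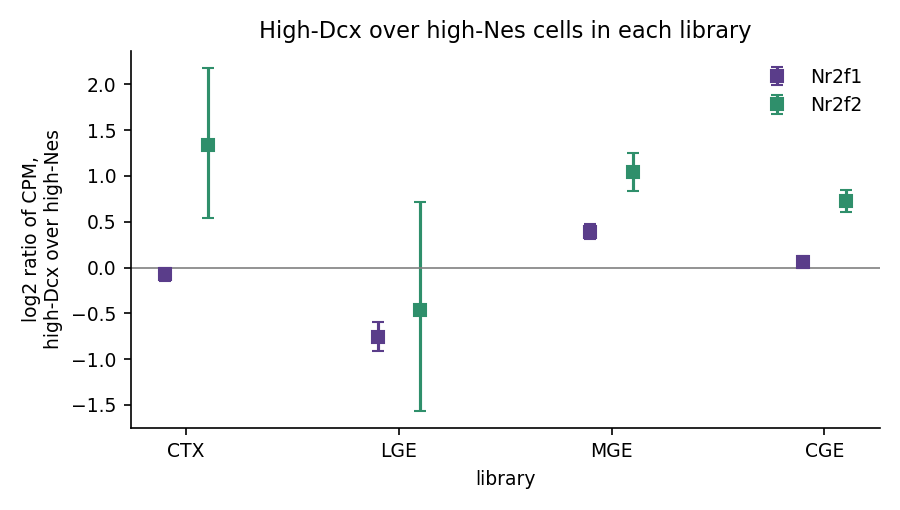
Log2 ratio of the level in high-Dcx cells over that in high-Nes cells for Nr2f1 and Nr2f2 in each library; bars are 95% counting intervals and the line marks no difference. Nr2f1 lies at 0.39 in MGE and -0.75 in LGE, and Nr2f2 is above 0 in CTX, MGE and CGE.

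The edgeR quasi-likelihood test over the 8 class sums, with the library as a block, gave a log2 fold change of 0.90 (SE 0.22) for Nr2f2, higher in 3 of 4 libraries, with an adjusted p of 0.0167. For Nr2f1 it gave 0.01 (SE 0.18), higher in 2 of 4 libraries, with an adjusted p of 0.971 in edgeR. Of 13416 genes tested, 27.8% were called higher and 27.6% lower in high-Dcx cells, and the count of 1 called among the 2 members is read against these shares. The Nr2f2 call was lost without the MGE library, at 0.77 (edgeR adjusted p 0.0994), and without the CGE library, at 0.91 (adjusted p 0.0949). It was also lost in edgeR with a gate of 1.0 (adjusted p 0.0683), with doublets kept (adjusted p 0.0582) and without the library block (adjusted p 0.717). The high-Dcx class holds different neuron types in each region, and the sums alone do not tell fewer cells of a type from less RNA per cell. Cells thinned to 3000 UMIs, with those past both limits included, give 2 parts for Nr2f2. In CGE the share with a UMI was 67.4% in high-Nes and 66.1% in high-Dcx cells, with 1.92 and 2.98 UMIs per positive cell. In MGE the shares were 11.05% and 14.7%, with 1.49 and 1.96 UMIs. CTX and LGE had at most 11 positive cells per class. The part of cell types in this was not tested.

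Within the high-Dcx class, dividing cells (SVZ, for subventricular zone) were taken as those with Mki67 and Ccnd2 above 0.5 on the ln scale, the neuronal genes Mapt and Rbfox3 below it and Nes not above 1.5. Postmitotic cells (MZ, for mantle zone) had Nes, Hes5, Mki67, Ccnd1 and Ccnd2 below 0.5. In MGE Nr2f1 was at 233 CPM in 211 SVZ cells (212 to 255) and 499 CPM in 839 MZ cells (480 to 519), and Nr2f2 at 55.6 CPM (45.8 to 67.0) and 107 CPM (98.4 to 117). In CGE Nr2f2 was at 454 CPM in 70 SVZ cells (406 to 506) and 628 CPM in 1203 MZ cells (611 to 646), while the Nr2f1 intervals overlapped, at 1361 CPM (1278 to 1449) and 1400 CPM (1374 to 1427). In LGE Nr2f1 was at 34.7 CPM in SVZ and 101 CPM in MZ cells (90.7 to 113). All LGE high-Nes cells were at 101 CPM (92.9 to 110), so the lower LGE level of the whole high-Dcx class was not seen in its MZ cells. In MGE the high-Nes level of Nr2f1, 303 CPM, lay between those of SVZ and MZ cells. The CTX library held 14 SVZ cells, too few to set beside its MZ cells, and among MZ cells Nr2f1 was 1.29-fold higher in MGE than in CTX (1.18 to 1.41), the reverse of their order over the whole class.

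Among the relatives and partners of the COUP-TFs, 16 genes were tested: 4 were higher in high-Dcx cells, 3 were lower and 9 were not called, with a median log2 fold change of 0.36 against 0.01 over all genes. Neither count is above the 27.8% and 27.6% of all genes called, so nothing is particular to the list. The zinc finger factors Bcl11a and Bcl11b, both known as COUP-TF-interacting proteins, rose by log2 2.27 (adjusted p 0.000148) and 3.59 (adjusted p 0.000685). The retinoid receptors Rara and Rxrg rose by log2 2.24 (adjusted p 0.00208) and 3.52 (adjusted p 0.0167). Rxrg was low: high-Nes and high-Dcx levels were 0.806 and 16.4 CPM in LGE, 2.67 and 7.02 in CGE and 0 and 2.76 in MGE. It was at 0 CPM in both CTX classes. Rxra, another retinoid X receptor, fell by 1.55 on the log2 scale (adjusted p 0.00551). The third gene of the family, Nr2f6, fell by 1.80 on the log2 scale (adjusted p 0.00107), from between 41.0 and 61.6 CPM in high-Nes cells to between 9.38 and 23.1 CPM. The orphan receptor Nr2e1, also called Tlx and known to keep neural stem cells dividing, fell by 3.12 on the log2 scale (adjusted p 0.00328). All adjusted p values here are from edgeR.

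Of 8 genes linked to COUP-TFs in forebrain or vessels, 2 were higher, 1 was lower and 5 were not called (median log2 fold change 1.34). These counts, too, are not above the 27.8% and 27.6% of all genes. The semaphorin receptor Nrp2 rose by log2 4.65 (edgeR adjusted p 0.000382), from between 0 and 2.50 CPM in high-Nes cells to 93.1 CPM in CGE, 41.8 in CTX, 17.9 in MGE and 2.99 in LGE high-Dcx cells. Rnd2, a small GTPase of migrating neurons, rose by log2 2.50 (adjusted p 0.0111), and the receptor Notch1 fell by 2.72 on the log2 scale (adjusted p 0.00138).

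The 2 members were found in the same MGE neurons more often than the product of their shares. Of 2155 thinned MGE high-Dcx cells, 256 had both, 655 Nr2f1 only, 60 Nr2f2 only and 1184 neither. Both were thus in 11.9% of cells where the product of the shares is 6.20%. Nr2f1 was found in 81.0% (exact Clopper-Pearson 95% interval 76.3 to 85.2) of MGE neurons with Nr2f2 and in 35.6% of those without. Nr2f2 was found in 28.1% of MGE neurons with Nr2f1 and in 4.82% of those without. MGE progenitors showed the same pattern: 88.1% (77.1 to 95.1) of high-Nes cells with Nr2f2 had Nr2f1, against 35.2% of the others.

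In CGE nearly all cells had Nr2f1, so the room for a difference was smaller. Of 2252 thinned CGE high-Dcx cells, 1428 had both, 621 Nr2f1 only, 60 Nr2f2 only and 143 neither. Nr2f1 was found in 96.0% of CGE neurons with Nr2f2 and in 81.3% of those without. In CGE high-Nes cells both were in 65.7%, close to the product of 64.0%.

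**Figure D3:**
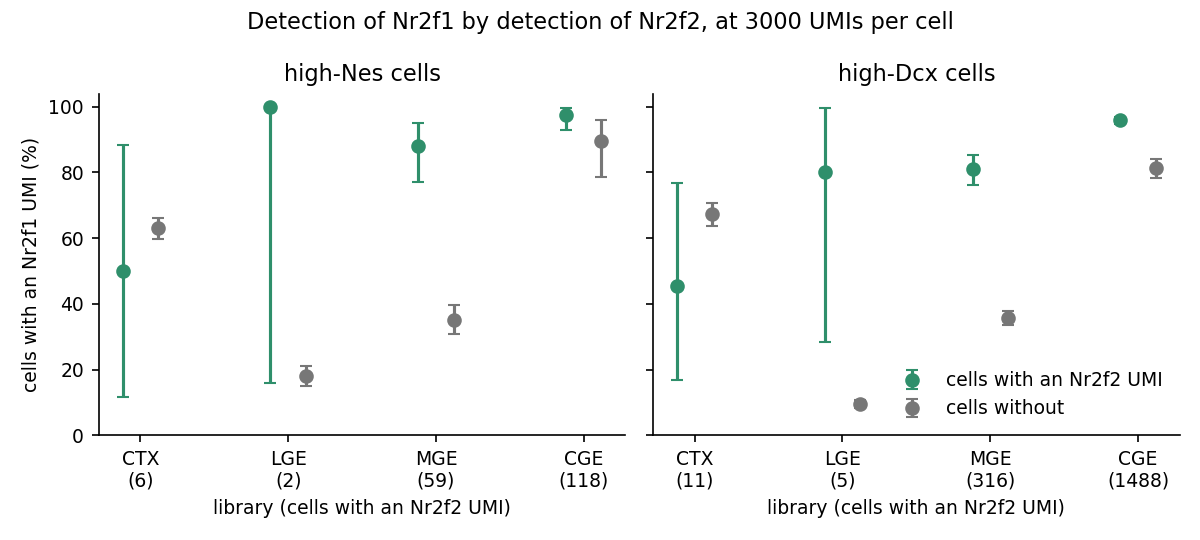
Percent of thinned cells with an Nr2f1 UMI among cells with (green) and without (grey) an Nr2f2 UMI, for high-Nes cells (left) and high-Dcx cells (right) of each library; bars are exact 95% Clopper-Pearson intervals, and the number under each library counts its cells with an Nr2f2 UMI. In MGE high-Dcx cells the points lie at 81.0% and 35.6%, and in CGE at 96.0% and 81.3%.

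The level of Nr2f1 also rose with the number of Nr2f2 UMIs in the cell. In MGE high-Dcx cells it was 263 CPM in 1839 cells with no Nr2f2 UMI, 749 CPM in 183 cells with 1, 1411 CPM in 107 cells with 2 to 4 and 1910 CPM in 26 cells with 5 or more. In CGE high-Dcx cells the same steps were 1031, 1498, 1733 and 1991 CPM. In the cells with 5 or more, the 95% intervals of MGE (1616 to 2243 CPM) and CGE (1900 to 2085 CPM) overlapped.

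CTX went the other way where Nr2f2 was strong. Of 11 thinned CTX high-Dcx cells with Nr2f2, all 5 cells with 1 UMI had Nr2f1, and all 6 cells with 2 or more had none. Over all kept CTX cells Nr2f1 was found in 22 of 49 cells with Nr2f2 (44.9%, 30.7 to 59.8) and in 63.7% of the others. In LGE Nr2f1 was found in 17 of 23 cells with Nr2f2 (73.9%, 51.6 to 89.8) and in 11.7% of the others.

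**Figure D4:**
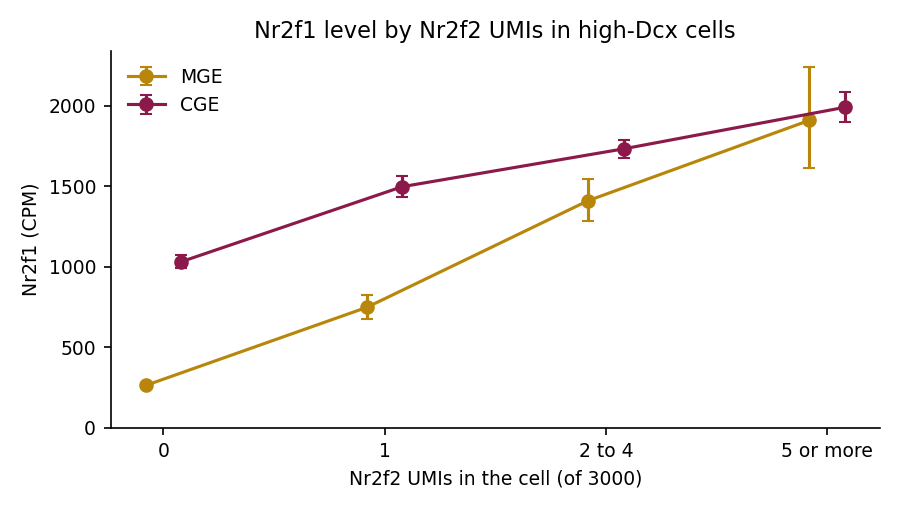
Level of Nr2f1 (CPM) in thinned high-Dcx cells grouped by their number of Nr2f2 UMIs; bars are exact 95% Poisson intervals. In MGE it runs from 263 CPM at no Nr2f2 UMI to 1910 CPM at 5 or more, and in CGE from 1031 to 1991 CPM.

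Which other genes went with each member differed by region. Pearson correlations of ln(1 + UMIs per 10000) across the cells of 1 library and class are given as a description. The cells share a library, differ in depth and are not replicates. In these sparse counts an r under about 0.2 is not read, Pearson's r can rest on few cells with many UMIs, and members are compared with genes found in at least 10% of the cells. The lists depend on depth: with cells thinned, between 0 and 5 of the 5 highest genes of a list stayed among its 5 highest. Outside the CTX and LGE lists treated apart, the Spearman value came within 0.2 of 0 for Lgi1, Pnmal2 and Rrm2 (Nr2f2 in MGE), Tcf4 and Isl1 (Nr2f1 in CGE) and Xist (Nr2f1 in LGE).

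In MGE high-Dcx cells (2207) the 2 members went together at r = 0.53, higher than with any of the 6991 genes. With Nr2f1 the highest were A830082K12Rik (0.39), a noncoding RNA antisense to Nr2f1, the neurofilament gene Ina (0.35), the ephrin receptor gene Epha5 (0.35), Ly6h (0.32) and the imprinted noncoding RNA Meg3 (0.31). The lowest were Mpped2 (-0.53), Lhx8 (-0.50), which specifies cholinergic neurons of the basal forebrain, and Pou3f2 (-0.37). With Nr2f2 the highest were Meg3 (0.25), Zdbf2 (0.25), A830082K12Rik (0.24), Lgi1 (0.23) and Pnmal2 (0.22), and among the lowest were Mpped2 (-0.42) and Lhx8 (-0.30). Of the 50 genes highest with each member, 31 were shared.

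Lineage genes gave the same split by level. Nr2f1 was at 66.5 CPM in the 642 thinned MGE neurons with Lhx8 and at 515 CPM in the 1513 without, a ratio of 0.129 (0.107 to 0.154). For Nr2f2 the values were 9.35 and 132 CPM, a ratio of 0.0706 (0.0415 to 0.113). Both were also lower with Zic1, a ventral and septal transcription factor (0.173 and 0.129), and with Nkx2-1 (0.432 and 0.391). Both were higher with Sst, the somatostatin gene of cortical interneurons (3.12 and 2.52; 53 cells), with Prox1, a factor of CGE-derived interneurons (1.47 and 2.24), and with Npas1 (1.75 and 2.57). The broader interneuron gene Lhx6 went the other way. Its 1362 thinned cells, 63.2% of the class, held 51.6% of the Nr2f1 UMIs and 55.3% of the Nr2f2 UMIs. The members parted at Isl1, a striatal and cholinergic factor, where Nr2f1 was higher (1.92, 1.68 to 2.18) and Nr2f2 lower (0.569, 0.354 to 0.870). Of the 26 lineage genes, 20 were found in at least 20 MGE neurons. The interval of the ratio lay above 1 for 10 and below 1 for 8 with Nr2f1, and above 1 for 3 and below 1 for 9 with Nr2f2.

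The detection groups of MGE neurons also differed in lineage genes. Lhx8 was at 526 CPM in cells with neither member, 64.6 in those with Nr2f1 only, 55.6 in those with Nr2f2 only and 11.7 in those with both. Sst was at 189 CPM in cells with both (159 to 222), 71.2 with Nr2f1 only and 39.4 with neither (33.2 to 46.5). Nrp2 was at 74.2 CPM with both (56.2 to 96.2), 16.8 with Nr2f1 only and 7.88 with neither (5.24 to 11.4).

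In CGE high-Dcx cells (2287) the members went together at r = 0.50, again above any of the 7271 genes. With Nr2f1 the highest were the noncoding RNA Mir99ahg (0.25), Mctp1 (0.25), Tcf4 (0.22), Prox1 (0.22) and A830082K12Rik (0.22), and among the lowest were the axon guidance receptor gene Robo2 (-0.40) and Isl1 (-0.33). With Nr2f2 they were Mir99ahg (0.32), Prox1 (0.30), the ligand gene Wnt5a (0.30), the nuclear factor gene Nfib (0.30) and Gm17750 (0.28), and Mpped2 (-0.37), Robo2 (-0.34) and the striatal factor gene Zfp503 (-0.34) at the other end. As in MGE, 31 of 50 highest genes were shared by the members.

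CGE neurons with Prox1 had more of both members: 1765 against 1388 CPM of Nr2f1, a ratio of 1.27 (1.22 to 1.33), and 903 against 572 CPM of Nr2f2, a ratio of 1.58 (1.48 to 1.68). Neurons with Isl1 had less, with ratios of 0.613 (0.563 to 0.667) and 0.428 (0.367 to 0.496). Lhx6, a factor of MGE-derived interneurons, went with ratios of 0.908 and 0.699. Of 22 lineage genes compared, the interval lay above 1 for 5 and below 1 for 13 with Nr2f1, and above 1 for 7 and below 1 for 13 with Nr2f2. The 143 CGE neurons with neither member held 597 CPM of Isl1 and 723 CPM of Ebf1, both genes of striatal neurons, against 34.3 and 41.6 CPM in those with both. Prox1 ran the other way, at 18.6 CPM with neither (8.05 to 36.7) and 203 CPM with both (190 to 217).

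Glutamatergic markers moved with both members in CGE. Neurons with Neurod2, a factor of cortical glutamatergic neurons, held 2463 CPM of Nr2f1 against 1454 CPM in the others (1.69, 1.54 to 1.85) and 1667 against 626 CPM of Nr2f2 (2.66, 2.38 to 2.98). They were 67 of 2252 cells. By the whole glutamatergic list, 78 CGE high-Dcx cells had 3 or more of its 5 genes, with 2475 CPM of Nr2f1 and 1538 CPM of Nr2f2. The 2071 cells with 3 or more of the 6 GABAergic genes held 1428 and 613 CPM, against 1461 and 646 CPM over the whole class. The list limit of 3 genes was chosen after the values were seen.

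In LGE high-Dcx cells (2122) most Nr2f1 UMIs lay in the GABAergic cells, at a low level, and a few cells with genes of other lineages had much more. The 1914 cells with 3 or more of the GABAergic genes held 667 of 937 UMIs, at 49.2 CPM. The 25 thinned cells with Neurod2, 1.20% of the class, held 27.7% of its Nr2f1 UMIs, at 1533 CPM against 48.6 CPM in the rest (31.5-fold, 25.2 to 39.2). By the whole list, 24 glutamatergic cells had 1415 CPM (1232 to 1616), a level above that of CTX neurons on the same list (418 CPM; 401 to 434). Cells with genes of MGE-type interneurons also had more Nr2f1, with ratios of 3.77 (2.86 to 4.91) for Sst, 2.66 (1.40 to 4.60) for Nkx2-1 and 2.43 (1.80 to 3.24) for Lhx6. Cells with genes of striatal neurons had less, with ratios of 0.249 (0.202 to 0.308) for Meis2 and 0.339 (0.257 to 0.442) for Isl1. Meis2 was found in 91.2% of the class at full depth, so its ratio is set against a small rest. Of 22 lineage genes compared, the interval lay above 1 for 10 and below 1 for 9. The highest correlations were Tcf4 (0.32), Ptprd (0.27), Gm17750 (0.24), Olfm1 (0.23) and Cntn2 (0.22), and the lowest Meis2 (-0.28), Mpped2 (-0.25) and Gnai2 (-0.22). As Spearman values Gm17750, Olfm1, Cntn2, Mpped2 and Gnai2 were all within 0.2 of 0. With Nr2f2 no gene passed 0.2.

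**Figure D5:**
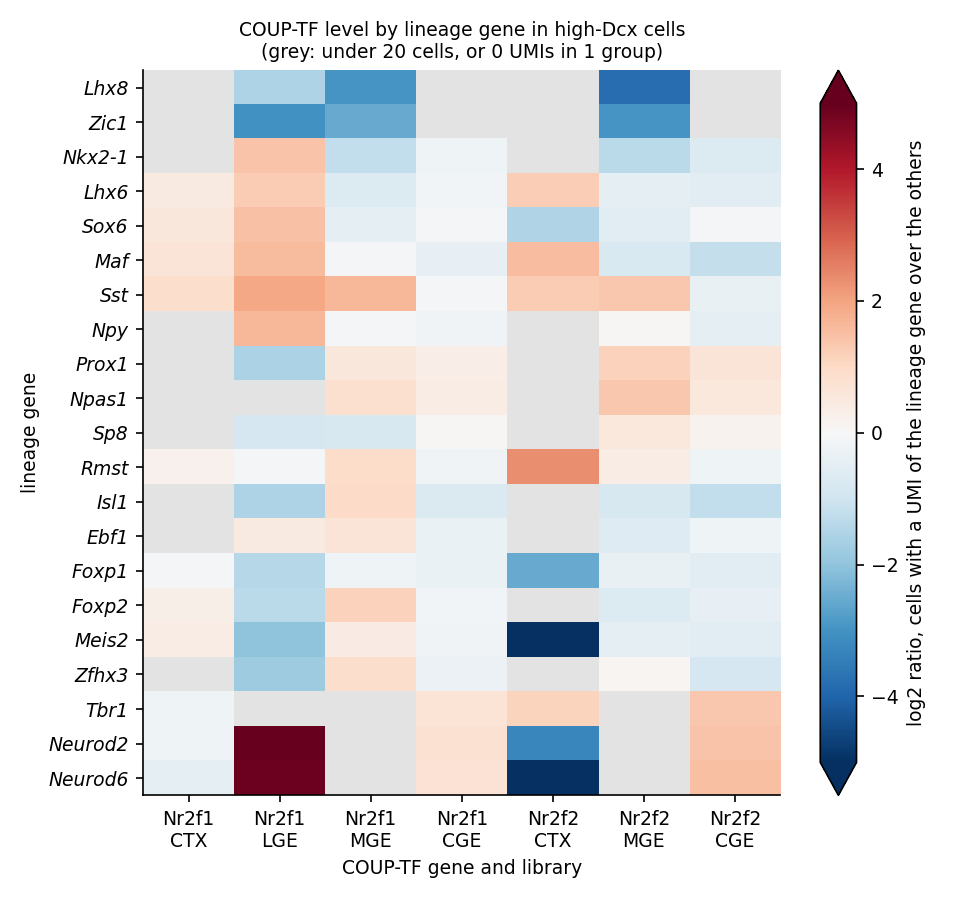
Heat map of the log2 ratio of the level of Nr2f1 or Nr2f2 in thinned high-Dcx cells with a UMI of a lineage gene (vertical axis) over that in the other cells, by member and library (horizontal axis; Nr2f2 in LGE is left out for its few UMIs). Red is higher with the gene, blue is lower, and grey has under 20 cells or no UMI in a group. In MGE both members are lower in Lhx8 cells (ratios 0.129 and 0.0706), and in LGE Nr2f1 is 31.5-fold higher in Neurod2 cells.

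In CTX high-Dcx cells (798) the members did not go together (r = -0.00), and 1 of 50 highest genes was shared. Nr2f1 was broad: cells with Neurod6, a glutamatergic factor found in 700 of 784 thinned cells, had 482 CPM against 651 CPM in the others (0.741, 0.628 to 0.880). Its highest correlations were Tcf4 (0.31), the somatostatin receptor gene Sstr2 (0.28), the chemokine gene Cxcl12 (0.25), Gm3764 (0.25) and Celsr1 (0.25), and its lowest Islr2 (-0.36), the microtubule gene Map1b (-0.32) and Cdh13 (-0.31). Nr2f1 also fell with depth there (r with ln UMIs -0.29), the largest such value of the 4 high-Dcx classes, and its part in these correlations was not tested. The 55 CTX cells on the GABAergic list had 773 CPM (677 to 878), above the 418 CPM of the 689 glutamatergic cells.

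Nr2f2 in CTX neurons lay in cells with Reln, the secreted protein of Cajal-Retzius cells. Reln had its highest Pearson correlation (0.49), followed by Rcan2 (0.30), Emx2 (0.28), Nhlh2 (0.26) and Nav2 (0.25), and Neurod6 (-0.34) and Rprm (-0.25) were among the lowest. The Spearman values of the 5 highest were all under 0.2 (Reln 0.09, Rcan2 0.11, Emx2 0.14, Nhlh2 0.06 and Nav2 0.11). The 69 thinned cells with Reln, 8.80% of the class, held 22 of its 27 Nr2f2 UMIs. The 7 CTX cells with 3 or more of 5 Cajal-Retzius genes held 47 of 64 Nr2f2 UMIs at full depth, or 742 CPM (545 to 987), above the 94.4 CPM of MGE neurons. They had 47.4 CPM of Nr2f1 (9.77 to 138), against 418 CPM in the glutamatergic cells, where Nr2f2 was at 1.14 CPM. Among the 689 glutamatergic cells 7 Nr2f2 UMIs were found.

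In progenitors the members went together in MGE (r = 0.48, 539 cells) and CGE (r = 0.51, 180 cells), with 0.20 in LGE and -0.04 in CTX. With cells thinned, r was 0.40 in MGE, 0.28 in CGE and 0.12 in LGE. MGE high-Nes cells with Ptx3, a secreted pattern recognition protein, had more Nr2f1 (1000 against 281 CPM; 3.56, 2.75 to 4.56) and more Nr2f2 (333 against 41.3 CPM; 8.08, 4.87 to 13.0), in 25 cells. Those with the growth factor receptor gene Fgfr3 also had more of both (2.65 and 3.37), and those with Nkx2-1 less (0.722 and 0.491). In CGE the Ptx3 ratios were 1.37 (1.18 to 1.59) and 1.32 (1.00 to 1.73), and those of Fgfr3 had intervals that included 1. Fgfr3 cells of CTX and LGE had 1.71 and 1.78 times the Nr2f1 of the others.

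LGE progenitors with the dorsal gene Emx2 had 171 CPM of Nr2f1 against 78.6 CPM, and those with Sp8 had 11.3 against 99.1 CPM (0.114, 0.0137 to 0.418). Apart from the 171 CPM, these levels lie inside the interval of the LGE red cell barcodes. In CTX 42 high-Nes cells with Wnt7b had 55.6 CPM of Nr2f2 against 2.81 CPM in the others. All high-Nes cells of that library held 40 Nr2f2 UMIs before thinning. Wnt7b was also found in 73.7% of CTX high-Dcx cells, and cells past both class limits were not left out here. Leaving them out lowered the Nr2f2 level of all CTX high-Nes cells from 5.17 to 2.63 CPM. Their part in the Wnt7b difference was not tested, so it is not read as a progenitor subset.

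The highest correlations of Nr2f1 in high-Nes cells were Meis2 (0.36), the nuclear RNA Malat1 (0.35) and Fgfr3 (0.33) in CTX. In LGE they were Zbtb20 (0.30), Mir99ahg (0.28) and Pdpn (0.28), and in MGE A830082K12Rik (0.39), Ptprz1 (0.36) and Fgfr3 (0.35). In CGE they were Malat1 (0.50), 2610203C20Rik (0.44) and Mir99ahg (0.44). The lowest were Dct (-0.35), Ppp1r14b (-0.27) and Zic1 (-0.26) in CTX. In LGE they were Mpped2 (-0.29), Xist (-0.26) and Abracl (-0.25), and in MGE Mpped2 (-0.33), the cyclin gene Ccnd2 (-0.33) and Abracl (-0.29). In CGE the ribosomal protein gene Rps24 (-0.40) and Ftl1 (-0.40) were among the lowest, so that a nuclear RNA and a ribosomal message ran in opposite directions with Nr2f1 there. The part of this in the other values was not tested. Mir99ahg and 2610203C20Rik were among the 50 highest with Nr2f1 in all 4 high-Nes classes.

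For Nr2f2 the highest in MGE high-Nes cells were Ptx3 (0.31), A830082K12Rik (0.30) and Kat6b (0.28), and the lowest Ccnd2 (-0.26), Asb4 (-0.25) and Rrm2 (-0.25). In CGE they were Nfib (0.47), Malat1 (0.39) and Ptprs (0.36), with Rpl13 (-0.36) and Eif5a (-0.36) among the lowest. In CTX the neuronal genes Gap43 (0.38), Ly6h (0.38) and Pcsk1n (0.33) were highest and H2afz (-0.28), Gapdh (-0.22) and Sfrp1 (-0.20) lowest. Only 12 of these 901 cells had an Nr2f2 UMI, and the Spearman values were between -0.13 and 0.16, under the limit for reading. The 17 CTX cells past both class limits are included in these values. In LGE only Smyd2 passed 0.2 (0.22).

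The neighbourhood of each gene holds 14 annotated genes within 250 kb, of which 4 were in the matrix for each. A830082K12Rik (chr13:78198017-78279391, plus strand) overlaps Nr2f1 and ran in the same library order, at 82.5 CPM in CGE, 29.4 in CTX, 23.1 in MGE and 7.28 in LGE over all kept cells. Its class difference was log2 0.24 (edgeR adjusted p 0.440). B130024G19Rik (chr7:70364910-70489972, plus strand) overlaps Nr2f2 and had 264 UMIs in CGE (11.3 CPM), 23 in MGE, 2 in CTX and 0 in LGE, where 0 allows up to 0.0840 CPM. The methods describe default Cell Ranger parameters and name no strand setting. How reads were divided within each antisense pair was not checked. Fam172a, on the plus strand and not overlapping Nr2f1, was at 127 CPM in CGE and between 42.2 and 50.3 CPM elsewhere.

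Outside the neural cells, pericyte- or mesenchyme-like cells (3 or more of 8 markers) carried Nr2f2 in each library that held more than 1. Its level was 342 CPM in MGE (254 to 451; 18 cells), 161 in CTX (113 to 222; 26 cells) and 150 in CGE (72.0 to 276; 9 cells). The CTX and MGE values exceeded those of the neurons around them, at 9.47 and 94.4 CPM. Microglia-like cells held no Nr2f2 UMI, in 26 CTX, 5 MGE and 3 CGE cells, where 0 allows up to 9.03, 53.6 and 66.5 CPM.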

How the data were processed

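Single-cell RNA was measured in 4 libraries of wild-type E12.5 tissue, 1 per region, with Chromium 3' kits (versions 2 and 3). The labels describe sorting of live cells, while the methods describe wild-type cells as not sorted. The deposited files hold UMI counts per gene and barcode that the authors made with Cell Ranger against mm10 (GRCm38). Version 3.0.2 stands in the file headers and 3.0.0 in the processing notes. The methods state default parameters, and the annotation release and the strand setting are not named in the sources used here. The counts are not normalized or corrected for free RNA.

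Barcodes were kept with 1500 to 4500 detected genes, at most 5% mitochondrial and at most 1% Hbb UMIs. Simulated-doublet scores were used to remove barcodes at a rate of 0.8% per 1000 barcodes (228, 275, 265 and 122 barcodes of CTX, LGE, MGE and CGE). Levels are CPM over the UMIs of a class, with exact Poisson intervals, and ratios have exact conditional intervals, all at 95%. Both kinds treat UMIs as independent and leave out the spread between cells. Shares used cells thinned to 3000 UMIs. Summed counts were tested with edgeR 4.0.16 in R 4.3.3 (TMM, filterByExpr, quasi-likelihood, Benjamini-Hochberg at 0.05), with DESeq2 1.42.0 as an alternative, and this step was tested on simulated data. Each sum is from 1 pooled library. The library block takes up level differences between regions, so p-values measure how the class difference varies between the libraries, not between replicates. Python 3.11.15, numpy 2.4.6, scipy 1.17.1 and pandas 2.3.3 were used for the rest.

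The 2 members and all gene lists were chosen with earlier results of these data known. The genes named are the 5 highest and 3 lowest correlations per library in high-Dcx cells, the 3 highest and 3 lowest in high-Nes cells, genes within 250 kb and the listed partners and lineage genes. Of 43346 gene IDs, 42462 matched the GENCODE vM21 annotation without the version number. Promoter windows came from RefSeq (GRCm38.p6). The genes of other cell types were counted with a limit of 3 markers per cell. Protein sequences were not used here. A few genes that this rule names are not reported here.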

Additional observations from a re-analysis of the deposited data

Results flagged for a closer look

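Some values differed in direction between libraries, and these differences were not tested, since each region has 1 library. High-Dcx over high-Nes, the log2 ratio of Nr2f1 was -0.075 in CTX, against 0.39 in MGE and -0.75 in LGE.

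For 5 of the lineage genes, Nr2f1 was higher in MGE and lower in LGE high-Dcx cells that had a UMI of the gene, as the ratio of its level in cells with over cells without. The ratios were 2.25 and 0.389 for Foxp2, 1.92 and 0.339 for Isl1, 1.33 and 0.249 for Meis2, 1.47 and 0.332 for Prox1, and 1.82 and 0.292 for Zfhx3, in MGE and LGE. Foxp2, Isl1, Meis2 and Zfhx3 are expressed in striatal or other projection neurons. Nkx2-1 went the other way, at 2.66 in LGE and 0.432 in MGE.

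For the glutamatergic factors, the Nr2f1 ratio was 31.5 in LGE and 0.866 in CTX with Neurod2, and 29.7 in LGE and 0.741 in CTX with Neurod6. The Nr2f2 ratio was 2.66 in CGE and 0.103 in CTX with Neurod2, and 2.82 in CGE and 0.0209 in CTX with Neurod6. With the noncoding RNA Rmst the Nr2f2 ratio was 5.04 in CTX and 0.869 in CGE.

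Both members were also present in barcodes that the lower limit on detected genes left out. The CTX, LGE, MGE and CGE levels of Nr2f1 in these were 337, 49.6, 293 and 876 CPM, and those of Nr2f2 were 13.6, 2.18, 62.6 and 406 CPM. The libraries kept the same order for both genes as among the kept high-Dcx cells.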

How the results depend on the processing

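The order of the libraries held under each of 6 alternative settings for the levels, except that with a gate of 2.0 LGE stood above CTX for Nr2f2 in high-Nes cells. The Nr2f2 class difference (log2 0.90) was not called without the library block (0.90, adjusted p 0.717), with a gate of 1.0 (1.06, 0.0683) or with doublets kept (0.85, 0.0582), and ran from 0.77 (without MGE) to 1.07 (without LGE) when 1 library was left out. It was called with DESeq2 (0.87, adjusted p 0.00508). The Nr2f1 difference (0.01) turned its sign with RLE size factors (-0.00047), a gate of 1.0 (-0.053) and non-neural cells removed (-0.0097), and ran from -0.15 (without MGE) to 0.22 (without LGE), at -0.04 without CGE, and passed the threshold in none of them. The counts of called genes ran from 2751 to 3708 higher and from 2746 to 3715 lower with 1 library left out. Nr2f1 in CGE over CTX moved to 3.34 in high-Nes cells (gate 2.0), and in high-Dcx cells to 3.01 (gate 2.0), 3.59 (no upper gene limit) and 2.97 (thinned). Nr2f2 in CGE over MGE moved to 9.74 in high-Nes cells (gate 1.0), and in high-Dcx cells to 7.39 (gate 1.0) and 6.18 (gate 2.0). The excess share of Nr2f1 in Nr2f2 cells moved from 45.4 to 60.8 percentage points in MGE and from 14.7 to 20.7 in CGE with 2 or more UMIs. The correlation of the members in high-Dcx cells fell in MGE to 0.49 (Spearman) and 0.44 (thinned), and in CGE to 0.37 (thinned). In CGE high-Nes cells it fell from 0.51 to 0.28 (thinned). With cells thinned, between 1 and 40 of the 50 genes highest with a member stayed among the 50 highest. Of the 232 other values, 177 stayed within the error and 55 moved. The cause of these changes was not tested. Nr2f2 in CTX and LGE rests on 11 to 64 UMIs per class, which limits every statement on it. The class test pairs the classes within each library through the block. No paired analysis was possible between regions, because each has 1 library and the labels carry no replicate numbers.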
